A study of Sus scrofa with 7 samples.

Results

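Plasma proteins, complement components and coagulation factors were examined in RNA-seq data from porcine extra-embryonic endoderm (pXEN) cells, porcine naïve-like embryonic stem cells (nESCs) and porcine primed embryonic stem cells (pESCs), both referred to as ESCs. The genes came from a list of 53 symbols of proteins that the liver and the yolk sac secrete into plasma, together with a few membrane-bound partners. Of these, 44 were found by gene name among the 29510 genes of the count and FPKM tables, and where a symbol had several entries the one with the most counts was used. The other 9 symbols, ORM1, FGA, FGG, F11, PLG, VTN, SERPING1, C1S and CFB, matched no gene name. Expression levels are given as FPKM, the fragments of a gene scaled by its length and by a total for the library, so that levels of different genes can be compared.

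The 3 pXEN lines were derived from the inner cell mass of parthenogenetic blastocysts and were grown on mouse embryonic fibroblasts in LCDM medium, which held LIF, CHIR99021, dimethindene maleate, minocycline and Y27632. They were at passages 26, 26 and 23. The 2 nESC lines, also from the inner cell mass, were at passages 21 and 22 and grew on mouse embryonic fibroblasts with FGF, LIF, PD0325901, CHIR99021, SB431542 and doxycycline. The 2 pESC lines had been converted from nESCs, were at passage 20 and grew on STO feeder cells with activin A, bFGF, EGF and LIF. There was 1 library per line, so each line is 1 replicate, and the cell type cannot be told apart from its medium. The parthenogenetic origin of the pXEN lines leaves them without a paternal genome, which limits them as a model of the endoderm of a fertilized embryo.

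In the yolk sac, the visceral endoderm secretes many of the proteins that hepatocytes later supply to plasma, among them carriers of iron, haem, hormones and lipids. Coagulation proceeds through a cascade of proteases, mostly made as inactive zymogens, that ends in thrombin and fibrin, and it is held in check by protein C, protein S, tissue factor pathway inhibitor and serpins. Complement is a second cascade of plasma proteases and binding proteins, in which cleavage of C3 leads to opsonization and, through C5 and the later components, to a pore in the target membrane.

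The depth was similar across libraries, with 10408164 to 12995720 reads counted on genes. The floor of detection was taken as 3 counts, which is 0.231 to 0.288 CPM, where CPM scales a count to the library's total, and covers counting error only. The endoderm label was met by 9 of 10 markers fixed for it, which were higher in pXEN cells than in either ESC type, and the tenth, SOX7, was too low to test. A list of 10 pluripotency markers, with 8 tested, gave a mixed result against nESCs. There, pXEN cells showed a higher level for 4 and a lower level for 2, beside 28.3% and 26.2% of all tested genes. Relative to pESCs, the level was higher for 2 and lower for 6, beside 23.9% and 24.4%. SOX2 stood at 102 FPKM or above in the ESC lines and at 0, 1.98 and 0 FPKM in pXEN lines 1, 2 and 3. POU5F1, which defines pluripotent cells, was at or near 0 in all 7 libraries, with at most 5 counts, and NANOG was higher in the pXEN lines, at 15.5, 4.5 and 13 FPKM, than in the ESC lines, at no more than 1.43 FPKM. Both RNA levels go against what these markers would show in ESCs. The paper, by contrast, reports OCT4 (POU5F1) and NANOG protein in nESCs and not in pXEN cells, and OCT4 protein in pESCs. The reason for this difference was not tested. Line 2 stood apart among the pXEN lines also for genes outside the list. The summed level of 11 fibroblast markers was 567, 801 and 535 FPKM in pXEN lines 1, 2 and 3, 8.70 and 14.8 FPKM in the nESC lines and 158 and 196 FPKM in the pESC lines. Of the 9 of these that were tested, 5 were higher and 0 lower in pXEN cells than in nESCs, and 2 were higher and 3 lower than in pESCs, beside 28.3%, 26.2%, 23.9% and 24.4% of all tested genes. Their part in the results was not tested. The 14 entries on chromosome Y held 1, 38 and 3 counts in the pXEN lines, 11 and 4 in the nESC lines and 0 and 1 in the pESC lines.

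Of the 44 genes, 33 passed the filter on low counts and were tested with edgeR's quasi-likelihood test in a model of all 7 libraries. A call is a Benjamini-Hochberg adjusted p below 0.05 over all 17447 genes tested. Against nESCs, 27 of the 33 were higher and 2 were lower in pXEN cells, while 28.3% of all tested genes were called higher, 26.2% lower and 54.5% in either direction. Against pESCs, 27 were higher and none lower, with 23.9%, 24.4% and 48.3% of all tested genes called higher, lower and in either direction. At an unadjusted p below 0.05, 0 of the 33 were lower in pXEN cells than in pESCs, and DESeq2 likewise called 0 lower. The other 11 genes were too low to test, and a gene that passed the filter only through the pXEN lines had to differ, so these counts do not describe all 44. In both comparisons 26 genes were called higher, against 18.1% of all tested genes, and 15.5% of all tested genes were called lower in both. The comparisons share the pXEN libraries and are not independent. In bulk RNA, fewer cells that express a gene and less RNA per cell cannot be told apart.

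**Figure D1:**
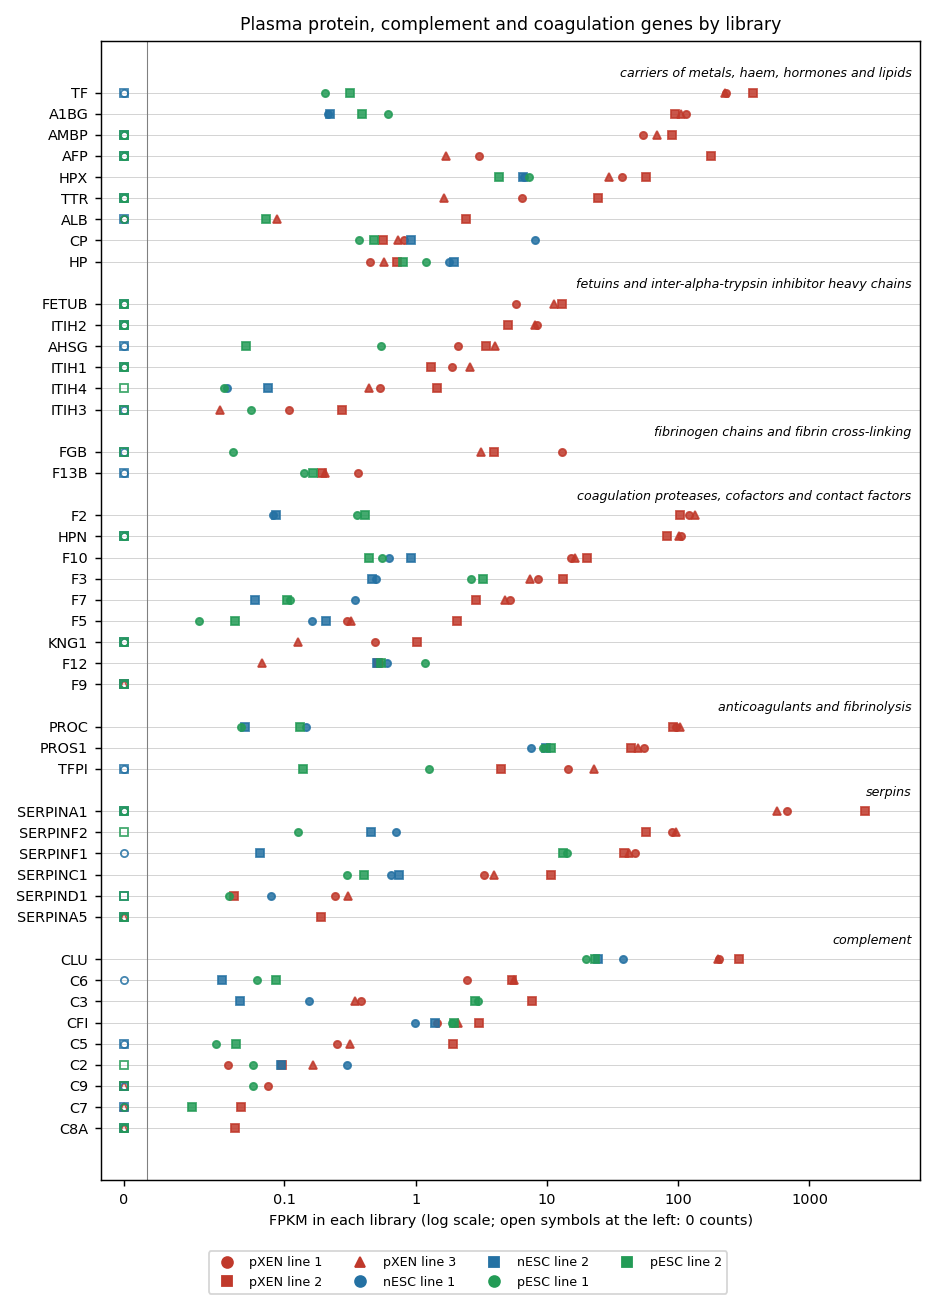
FPKM of the 44 genes found in each of the 7 libraries, on a log scale, grouped by role and ordered within a role by the mean of the pXEN lines. Open symbols at the left are libraries with 0 counts. SERPINA1, TF, CLU and F2 have the highest means of the pXEN lines, although AFP lies above F2 in line 2. Of the tested genes, 8 have 0 counts in all 4 ESC lines.

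The median log2 fold change of the 33 genes was 8.68 against nESCs and 5.23 against pESCs, beside 0.00 and −0.01 over all tested genes. These medians include fitted values for 13 genes without a count in nESCs and 8 without a count in pESCs. With those genes set to the lower bound that a floor of 3 counts per library allows, the medians were 4.49 and 4.75. Of the 33 genes, 29 were higher and 3 lower in CPM without overlap of the groups against nESCs, beside 29.9% and 42.3% of all tested genes. Against pESCs these were 29 and 2, beside 26.7% and 42.5%. The 44 genes together took 0.323%, 0.634% and 0.314% of all counts in pXEN lines 1, 2 and 3, against 0.0206% and 0.0125% in the nESC and 0.0144% and 0.0142% in the pESC lines. Without pXEN line 2, 28 genes were called higher in each comparison, beside 30.2% of all genes tested then against nESCs and 26.5% against pESCs.

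Among the carriers, transferrin (TF), the iron carrier of plasma, had the highest level. Its level was 233, 372 and 226 FPKM in pXEN lines 1, 2 and 3, 0 in both nESC lines, and 0.203 and 0.317 FPKM in the pESC lines. The pXEN lines were all far above the ESC lines, by at least 2237-fold against nESCs (adjusted p = 3.5e-06) and by a log2 fold change of 10.03 ± 0.42 (SE) against pESCs (adjusted p = 6.72e-06). TF, at chr13:82429036-82469005 of the build Sscrofa10.2 used for the files, lies on a chromosome whose genes were shifted as a group. The median gene of chromosome 13 differed by 0.45 on the log2 scale between pXEN cells and nESCs and by 0.36 between pXEN cells and pESCs. Between pXEN line 2 and the mean of lines 1 and 3 it differed by −0.40. CP, AHSG, FETUB, ITIH1, ITIH3, ITIH4, KNG1 and PROS1 lie on the same chromosome. On chromosome 16, which holds C6, C7 and C9, the median gene differed by −0.68 between pXEN cells and nESCs. Between pXEN cells and pESCs this was −0.05.

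A1BG, a plasma glycoprotein of the immunoglobulin superfamily, was among the most even carriers. It stood at 116, 95.4 and 105 FPKM in the pXEN lines, at 0.215 and 0.223 FPKM in the nESC and at 0.621 and 0.387 FPKM in the pESC lines. The log2 fold change was 8.87 ± 0.24 against nESCs (adjusted p = 3.22e-07) and 7.71 ± 0.21 against pESCs (adjusted p = 8.88e-07). AMBP, the precursor of alpha1-microglobulin and bikunin, had 53.9, 89.5 and 68.5 FPKM in the pXEN lines and 0 counts in all ESC lines. It was at least 324-fold higher than in nESCs (adjusted p = 2.04e-05) and at least 362-fold higher than in pESCs (adjusted p = 3.16e-05). Hemopexin (HPX), which binds free haem, had a base level in the ESCs. It stood at 37.3, 56.7 and 29.5 FPKM in the pXEN lines, at 6.68 and 6.57 FPKM in the nESC and at 7.25 and 4.28 FPKM in the pESC lines. The groups did not overlap, and HPX was higher in pXEN cells by a log2 fold change of 2.63 ± 0.34 (adjusted p = 0.000366) and 2.85 ± 0.34 (adjusted p = 0.000340).

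The carriers most used as markers of yolk sac endoderm and fetal liver were uneven among the pXEN lines. AFP, the albumin-like protein of fetal plasma, at chr8:73777775-73798926, had 60, 4037 and 37 counts in pXEN lines 1, 2 and 3, or 3.06, 176 and 1.69 FPKM, and 0 counts in the 4 ESC lines. All 3 pXEN lines were above all ESC lines, yet AFP was not called, with an adjusted p of 0.0550 against nESCs and 0.0580 against pESCs. Without line 2 it was called, at least 16.6-fold higher than in nESCs (adjusted p = 0.000561) and at least 18.5-fold higher than in pESCs (adjusted p = 0.000610). With line 2 and without line 1 or line 3 it was also called, with adjusted p of 0.0398 and 0.0304 against nESCs. Against pESCs, these were 0.0439 and 0.0335. With all lines, AFP was called with limma on log2(FPKM + 0.1) (adjusted p = 0.0181 and 0.0207) and without a filter (adjusted p = 0.0236 and 0.0252). The first of each pair is against nESCs. It was not called with upper-quartile factors (adjusted p = 0.0564 and 0.0592) or chromosome offsets (adjusted p = 0.0508 and 0.0541). DESeq2 gave it no adjusted p. The replicate block called AFP (adjusted p = 9.47e-05 and 0.000142), but line numbers do not pair the cell types. With no count in the ESC lines, the block absorbs the spread among the pXEN lines, so its p-values do not measure that spread. A second entry named AFP held 5 counts in line 2 and 0 elsewhere. Albumin (ALB), the main protein of adult plasma, had 0, 57 and 2 counts in the pXEN lines, 0 and 0 in the nESC and 0 and 2 in the pESC lines. ALB did not pass the filter, and its reads came almost entirely from line 2. Transthyretin (TTR), a carrier of thyroxine and of retinol-binding protein, stood at 6.49, 24.5 and 1.64 FPKM in the pXEN lines and at 0 counts in all ESC lines. It was called higher, by at least 22.5-fold against nESCs (adjusted p = 0.0148) and at least 25.2-fold against pESCs (adjusted p = 0.0159). The call against nESCs was lost without nESC line 1 or line 2 (adjusted p = 0.0633 and 0.0598), and the call against pESCs without pESC line 1 or line 2 (adjusted p = 0.0668 and 0.0701). Without pXEN line 2 the bounds were 8.68-fold and 9.70-fold.

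Ceruloplasmin and haptoglobin were not called higher in pXEN cells. Ceruloplasmin (CP), a copper-carrying ferroxidase, had 0.821, 0.562 and 0.735 FPKM in the pXEN lines, 8.11 and 0.916 FPKM in the nESC and 0.368 and 0.480 FPKM in the pESC lines. The high value belonged to nESC line 1 alone. CP was called lower in pXEN cells (log2 fold change −2.68 ± 0.73, adjusted p = 0.0147), and without that line the log2 fold change was −0.40 (adjusted p = 0.499). Against pESCs every pXEN line was above both, and CP was not called (log2 fold change 0.73 ± 0.81, adjusted p = 0.491). CP overlaps HPS3 on the opposite strand, and the strand setting of the counting is not given in the sources used here. Haptoglobin (HP), which binds free haemoglobin, was named after its values were seen, since it was the other gene called lower. It stood at 0.446, 0.721 and 0.577 FPKM in the pXEN lines, 1.81 and 1.96 FPKM in the nESC and 1.20 and 0.796 FPKM in the pESC lines. Its log2 fold change was −1.69 ± 0.39 against nESCs (adjusted p = 0.00724), with no overlap, and −0.76 ± 0.40 against pESCs (adjusted p = 0.159).

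The fetuins and the inter-alpha-trypsin inhibitor heavy chains, which bind mineral, proteases and hyaluronan, were low to moderate in pXEN cells. FETUB, or fetuin B, had 5.79, 13.1 and 11.3 FPKM in the pXEN lines and 0 counts in the ESC lines, at least 45-fold higher than in nESCs (adjusted p = 0.000332) and at least 50.4-fold higher than in pESCs (adjusted p = 0.000403). ITIH2 had 8.36, 5.06 and 8.10 FPKM and likewise no count in the ESC lines, at least 40.3-fold (adjusted p = 0.000164) and 45.1-fold higher (adjusted p = 0.000209). ITIH4, at 0.538, 1.46 and 0.442 FPKM in the pXEN lines, had 1 and 2 counts in the nESC and 1 and 0 in the pESC lines. The ratio of ITIH4 to nESCs was 13.1 with a 95% counting interval of 4.26 to 65.1 (adjusted p = 0.0101), and to pESCs 43.9 with an interval of 7.59 to 1762 (adjusted p = 0.00519). Its calls were lost without nESC line 1 or 2 (adjusted p = 0.0883 and 0.0545) or without pESC line 2 (adjusted p = 0.0542). The fitted log2 fold change of ITIH4 was 3.76 against nESCs and 5.25 against pESCs, or 3.02 and 4.52 without pXEN line 2. AHSG and ITIH1 lay between 1.31 and 4.0 FPKM in the pXEN lines and were also called higher in both comparisons. The log2 fold change of AHSG against pESCs was 3.42 (adjusted p = 0.0120), or 5.78 and 2.53 without pESC line 1 or 2. ITIH3, with 3, 9 and 1 counts in the pXEN lines, was too low to test.

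Only the beta chain of fibrinogen, the precursor of the fibrin mesh, was found by name. FGB stood at 13.1, 3.95 and 3.15 FPKM in the pXEN lines, at 0 counts in the nESC lines, and at 1 and 0 counts in the pESC lines. It was at least 45.3-fold higher than in nESCs (adjusted p = 0.00121), and its ratio to pESCs was 291 with a 95% counting interval of 52.0 to 11537 (adjusted p = 0.00166). Without pXEN line 1 the bound was 23.7-fold. The fitted log2 fold change of FGB against pESCs was 8.06, or 7.15 without pXEN line 1 and 7.17 without pESC line 2, and without pESC line 1 the bound was 53.2-fold. Line 1 held the highest FGB level, unlike most uneven genes of the list. A second FGB entry had 24, 15 and 8 counts in the pXEN lines. F13B, the carrier subunit of the fibrin cross-linking enzyme, had 8, 5 and 5 counts in the pXEN lines, 0 and 0 in the nESC and 4 and 5 in the pESC lines, and did not pass the filter. Without a filter it was called higher than in nESCs, by at least 1.97-fold (adjusted p = 0.0169), and not against pESCs (adjusted p = 0.602).

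The coagulation proteases included prothrombin at high level. F2, the zymogen of thrombin, at chr2:17145002-17170975, stood at 121, 103 and 133 FPKM in the pXEN lines, at 0.0825 and 0.0857 FPKM in the nESC and at 0.357 and 0.409 FPKM in the pESC lines. The pXEN lines lay within 1.29 times of each other. The log2 fold change was 10.37 ± 0.25 against nESCs (adjusted p = 3.1e-07) and 8.27 ± 0.21 against pESCs (adjusted p = 8.88e-07). Hepsin (HPN), a membrane serine protease of hepatocytes that can activate factor VII, stood at 106, 82.5 and 101 FPKM in the pXEN lines and had no count in the ESC lines. It was at least 384-fold higher than in nESCs (adjusted p = 4.18e-06) and at least 429-fold higher than in pESCs (adjusted p = 6.72e-06).

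Tissue factor (F3), the membrane receptor that starts coagulation with factor VII, was found in all 7 libraries. Its level was 8.49, 13.3 and 7.39 FPKM in the pXEN lines, 0.500 and 0.467 FPKM in the nESC and 2.64 and 3.24 FPKM in the pESC lines. The cell types did not overlap, and F3 was higher in pXEN cells by a log2 fold change of 4.31 ± 0.40 (adjusted p = 5.92e-05) and 1.74 ± 0.32 (adjusted p = 0.00287). Factor X (F10), which with factor V converts prothrombin to thrombin, stood at 15.4, 20.3 and 16.4 FPKM in the pXEN lines and between 0.443 and 0.928 FPKM in the ESC lines. Its log2 fold change was 4.47 ± 0.28 against nESCs (adjusted p = 8.55e-06) and 5.11 ± 0.29 against pESCs (adjusted p = 9.62e-06). Factor VII (F7), named after its values were seen because it partners tissue factor, stood at 5.20, 2.87 and 4.79 FPKM in the pXEN lines and at no more than 0.347 FPKM in the ESC lines. It was higher by a log2 fold change of 4.33 ± 0.65 (adjusted p = 0.000837) and 5.23 ± 0.70 (adjusted p = 0.000598). Without nESC line 1 or 2 the first was 5.97 or 3.59. Factor V (F5), the cofactor of factor X, was uneven, with 21, 168 and 25 counts in the pXEN lines, 14 and 17 in the nESC and 2 and 4 in the pESC lines. It was called higher against pESCs (log2 fold change 4.75 ± 1.14, adjusted p = 0.00993) and not against nESCs (2.28 ± 0.92, adjusted p = 0.0682). Against pESCs the call was lost without pESC line 1 or 2 (adjusted p = 0.0788 and 0.0630), and against nESCs F5 was called without pXEN line 1 or 3 (adjusted p = 0.0361 and 0.0373). Without pXEN line 2 its log2 fold change was 0.75 against nESCs (adjusted p = 0.204) and 3.21 against pESCs (adjusted p = 0.00165).

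Among the genes of the intrinsic arm, factor XI had no entry by name. Factor IX (F9) had 0 counts in all 7 libraries, which allows up to 0.231 to 0.288 CPM. F12 stood between 1 and 20 counts and was not called in any comparison. Kininogen (KNG1), the cofactor of contact activation, had 7, 17 and 2 counts in the pXEN lines and 0 in the ESC lines, and did not pass the filter. Without a filter it was called higher in pXEN cells, at least 2.70-fold against nESCs (adjusted p = 0.0318) and at least 3.01-fold against pESCs (adjusted p = 0.0324). When 1 ESC line was left out KNG1 passed the filter, and it was not called against nESCs without nESC line 1 or 2 (adjusted p = 0.113 and 0.107) or against pESCs without pESC line 1 or 2 (adjusted p = 0.123 and 0.132). It was called against nESCs without pESC line 1 or 2 (adjusted p = 0.0423 and 0.0429) and against pESCs without nESC line 1 or 2 (adjusted p = 0.0402 and 0.0401).

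The anticoagulants were higher in pXEN cells. Protein C (PROC), which with protein S inactivates factors V and VIII, stood at 95.4, 91.7 and 103 FPKM in the pXEN lines, with 1 to 3 counts in each ESC line. Its log2 fold change was 9.84 ± 0.28 against nESCs (adjusted p = 3.43e-07) and 9.98 ± 0.28 against pESCs (adjusted p = 8.88e-07). Without nESC line 1 the first was 10.72, and without pESC line 2 the second was 10.83. PROC was the most even of the genes compared, at 1.12 times between the highest and the lowest pXEN line. Protein S (PROS1) had a base level in the ESCs, at 7.62 and 9.78 FPKM in the nESC and 9.38 and 10.8 FPKM in the pESC lines, and stood at 55.3, 43.9 and 49.1 FPKM in the pXEN lines. It was higher in pXEN cells by a log2 fold change of 2.50 ± 0.19 (adjusted p = 2.08e-05) and 2.30 ± 0.18 (adjusted p = 4.75e-05). Tissue factor pathway inhibitor (TFPI) stood at 14.4, 4.48 and 23.0 FPKM in the pXEN lines, 0 in the nESC lines, and 1.26 and 0.139 FPKM in the pESC lines. In TFPI, line 2 was the lowest pXEN line. TFPI was at least 52.2-fold higher than in nESCs (adjusted p = 0.00240). Against pESCs its log2 fold change was 4.32 ± 0.99 (adjusted p = 0.0102), and the call was lost without pESC line 2 (3.45, adjusted p = 0.0580), while without pESC line 1 the log2 fold change was 6.55 (adjusted p = 0.0197). Without pXEN line 3 the bound against nESCs was 34.8-fold.

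Among the serpins, a family of suicide inhibitors of proteases, alpha1-antitrypsin reached the highest level of the whole list. SERPINA1, the inhibitor of neutrophil elastase, at chr7:122616093-122621528, had 677, 2633 and 565 FPKM in the pXEN lines and 0 counts in the ESC lines. By FPKM it ranked 106th, 25th and 129th among all genes of pXEN lines 1, 2 and 3. It was at least 5929-fold higher than in nESCs (adjusted p = 0.000561) and at least 6628-fold higher than in pESCs (adjusted p = 0.000686). Without line 2 these bounds were 2937-fold and 3283-fold. SERPINA1 took 0.0862%, 0.323% and 0.0732% of all counts in the pXEN lines, and without it the summed level of the list was 1253, 1626 and 1255 FPKM.

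SERPINF2, or alpha2-antiplasmin, the inhibitor of plasmin, stood at 90.3, 57.1 and 96.1 FPKM in the pXEN lines, 0.703 and 0.456 FPKM in the nESC and 0.127 and 0 FPKM in the pESC lines. It was higher than in nESCs by a log2 fold change of 7.11 ± 0.41 (adjusted p = 6.29e-06), and its ratio to pESCs was 1172 with a 95% counting interval of 401 to 5685 (adjusted p = 6.72e-06). The fitted log2 fold change of SERPINF2 against pESCs was 10.25, or 9.26 without pESC line 2, and without pESC line 1, which held its only counts in pESCs, the bound was 624-fold. SERPINF1, or pigment epithelium-derived factor, a serpin without inhibitory activity, stood at 46.5, 38.5 and 42.5 FPKM in the pXEN lines. In the nESC lines it had 0 and 1 count, and in the pESC lines 14.3 and 13.2 FPKM, between the other cell types. Its ratio to nESCs was 1152 with an interval of 207 to 45546 (adjusted p = 1.01e-06), and its log2 fold change against pESCs was 1.64 ± 0.18 (adjusted p = 0.000200). Against nESCs the fitted log2 fold change of SERPINF1 was 10.04, or 9.16 without nESC line 1, and without nESC line 2, which held the only count, the bound was 198-fold. Antithrombin (SERPINC1), the inhibitor of thrombin and factor X, stood at 3.35, 10.7 and 3.95 FPKM in the pXEN lines, 0.653 and 0.749 FPKM in the nESC and 0.297 and 0.402 FPKM in the pESC lines. It was higher in pXEN cells by a log2 fold change of 3.09 ± 0.59 (adjusted p = 0.00283) and 4.09 ± 0.64 (adjusted p = 0.00123), or 2.36 and 3.37 without pXEN line 2. SERPINA5 and SERPIND1 had at most 7 counts in any library and were not tested. SERPIND1 lies within PI4KA on the opposite strand.

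**Figure D2:**
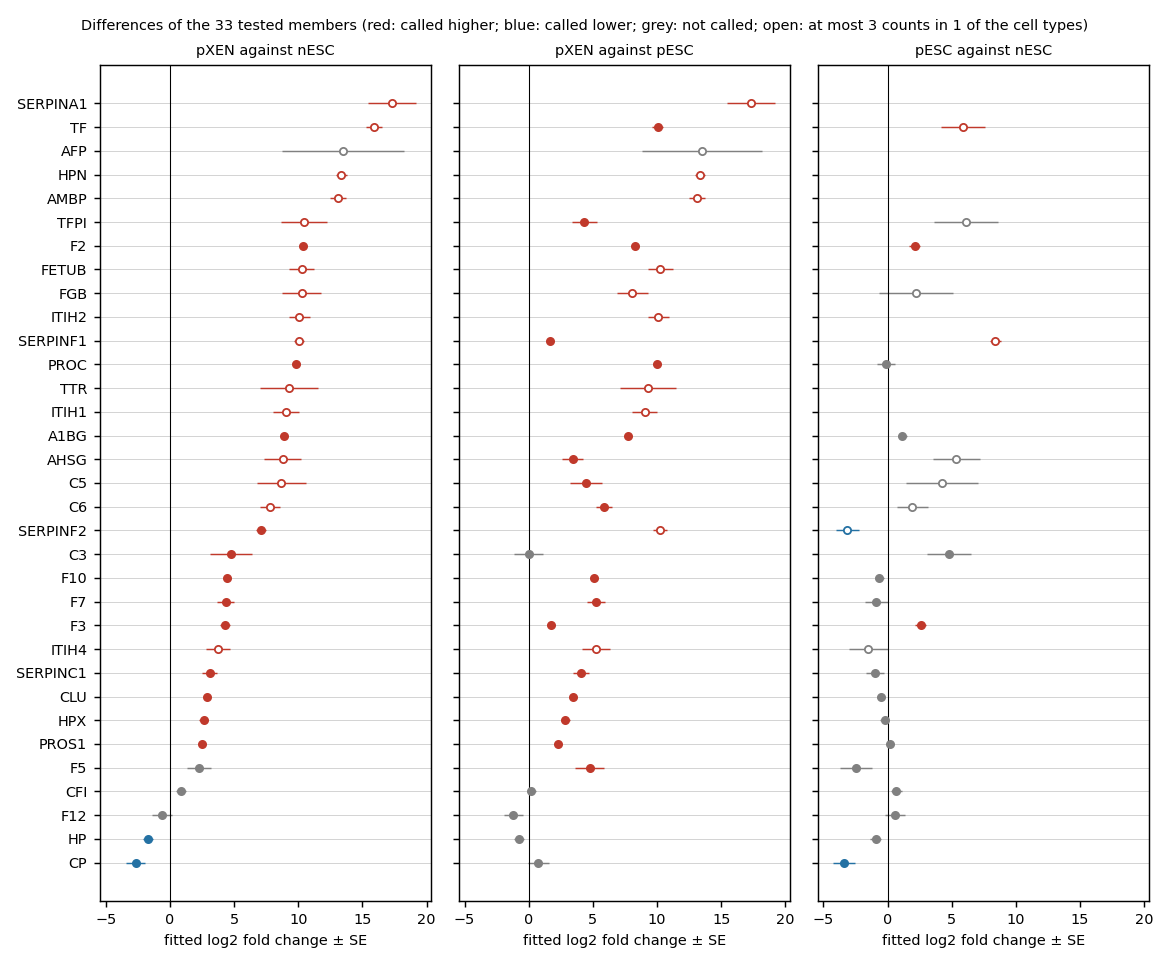
Fitted log2 fold change with its standard error for the 33 tested genes in the 3 comparisons, ordered by the first. Red marks genes called higher, blue genes called lower and grey genes not called; open circles have at most 3 counts in 1 of the cell types, where the fitted value is no bound, and genes without a count in both types are left out.

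Of the 9 complement genes found, 5 could be tested. Clusterin (CLU), a chaperone that also blocks the membrane pore, stood at 204, 289 and 201 FPKM in the pXEN lines, 38.1 and 24.4 FPKM in the nESC and 19.9 and 23.0 FPKM in the pESC lines. It was higher in pXEN cells by a log2 fold change of 2.88 ± 0.25 (adjusted p = 4.85e-05) and 3.44 ± 0.26 (adjusted p = 3.64e-05). C6, a component of the pore, stood at 2.48, 5.43 and 5.65 FPKM in the pXEN lines, with 0 and 1 count in the nESC and 2 and 3 counts in the pESC lines. Its ratio to nESCs was 247 with a 95% counting interval of 44.0 to 9769 (adjusted p = 0.000109), and its log2 fold change against pESCs was 5.86 ± 0.65 (adjusted p = 0.000228). The fitted log2 fold change of C6 against nESCs was 7.79, or 6.91 without nESC line 1, and without nESC line 2 the bound was 41.3-fold. C5, which starts the pore, had 13, 115 and 18 counts in the pXEN lines, 0 and 0 in the nESC and 2 and 3 in the pESC lines. C5 was at least 14.7-fold higher than in nESCs (adjusted p = 0.00788; at least 5.21-fold without pXEN line 2) and by a log2 fold change of 4.44 ± 1.23 than in pESCs (adjusted p = 0.0221; 2.89 without pXEN line 2). The latter call was lost without pESC line 1 or 2 (adjusted p = 0.126 and 0.115).

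C3, on which all arms of complement converge, was uneven among the pXEN lines. It stood at 0.382, 7.69 and 0.342 FPKM in pXEN lines 1, 2 and 3, 0.155 and 0.0460 FPKM in the nESC and 2.96 and 2.81 FPKM in the pESC lines. Line 2 thus lay above the pESC lines, and lines 1 and 3 lay below them. C3 was called higher in pXEN cells than in nESCs (log2 fold change 4.76 ± 1.66, adjusted p = 0.0402), and without pXEN line 2 it was 1.80 (adjusted p = 0.0179). Without any 1 ESC line C3 was not called (adjusted p between 0.0629 and 0.185). Between the ESC types it was not called (adjusted p = 0.0660) and was called higher in pESCs without any 1 pXEN line (adjusted p between 9.49e-05 and 0.0456). Against pESCs the log2 fold change was −0.02 ± 1.14 (adjusted p = 0.993) with the 3 lines and −2.98 ± 0.41 (adjusted p = 0.000346) without line 2. CFI, the protease that cuts C3b, stood at 1.46, 3.03 and 2.12 FPKM in the pXEN lines and between 0.997 and 1.97 FPKM in the ESC lines, and it was not called. Without pXEN line 1 it was called higher than in nESCs (adjusted p = 0.0494). C2, C7, C8A and C9 had at most 10 counts in any library. C9 lies within DAB2, an endoderm gene, on the same strand.

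Between the ESC types, 4 of the 33 genes were higher in pESCs and 2 were lower. Of all tested genes, 19.0% were higher and 13.3% lower, or 32.2% in either direction. Of the 33, 8 had no count in any ESC line and could not be called here. In a fit of the 2 ESC types alone, 14 genes of the list passed the filter, so these shares are not like for like. SERPINF1 had the widest gap, at a ratio of 420 with a 95% counting interval of 75.0 to 16611 (adjusted p = 1.02e-05). F3 rose by a log2 fold change of 2.58 ± 0.41 (adjusted p = 0.00252) and F2 by 2.11 ± 0.45 (adjusted p = 0.00937). TF rose from 0 to 6 and 10 counts, at least 2.36-fold (adjusted p = 0.0369). SERPINF2 was lower in pESCs by a ratio of 9.71 with an interval of 2.97 to 50.1 (adjusted p = 0.0309), and CP by a log2 fold change of −3.42 ± 0.87 (adjusted p = 0.0198), which was −1.13 without nESC line 1 (adjusted p = 0.145) and was also not called without pESC line 1 or 2 (adjusted p = 0.126 and 0.104). The call of F2 was lost without nESC line 1 or 2 or pESC line 2 (adjusted p = 0.0702, 0.0544 and 0.0625). That of TF was lost without any 1 of the 4 ESC lines (adjusted p between 0.0657 and 0.119) and with an offset for the shift of each chromosome (adjusted p = 0.136). That of SERPINF2 was lost without nESC line 1 or 2 or pESC line 2. The fitted log2 fold change of SERPINF2 was −2.15 without pESC line 2 and −6.68 without pESC line 1, beside −3.14 with all lines and no filter. SERPINF1 and F3 were called without any 1 line. The fitted log2 fold change of SERPINF1 was 8.41, or 7.53 without nESC line 1, and without nESC line 2 the bound was 71.8-fold.

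The spread among the pXEN lines was larger for these genes than for the tested genes as a whole. Of the 33 genes, 32 had a mean of at least 10 counts in the pXEN lines, and the ratio of the highest to the lowest line was above 2 for 13 of them, against 18.0% of all 15027 tested genes with as many counts. The median ratio was 1.86, against 1.37. AFP had the largest ratio, 104, followed by C3 at 22.5, TTR at 14.9, C5 at 7.57 and F5 at 6.85. TFPI, SERPINA1 and FGB came next at 5.14, 4.66 and 4.17, then ITIH4 at 3.30, SERPINC1 at 3.20, C6 at 2.28, FETUB at 2.26 and CFI at 2.07. ALB, which was not tested, had a ratio of at least 15.7.

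Line 2 was the line most often apart. It was above 2 times both other lines in 8 genes, namely AFP, C3, TTR, C5, F5, SERPINA1, ITIH4 and SERPINC1, against 3.69% of all tested genes. It was below 0.5 times both others in 1 gene, TFPI, against 4.59%. Lines 1 and 3 differed by more than 2 times in 3 genes, TTR, FGB and C6, against 5.49%. Line 2 was the highest of the lines in 17 of the 32 genes, against 42.6%, so that it was not uniformly higher. PROC, SERPINF1, A1BG, PROS1, HPN and F2 were slightly lower in line 2 than in both other lines and had ratios of 1.12, 1.21, 1.21, 1.26, 1.28 and 1.29. With 1 library per line there is no replicate of a line, so these ratios carry no test.

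**Figure D3:**
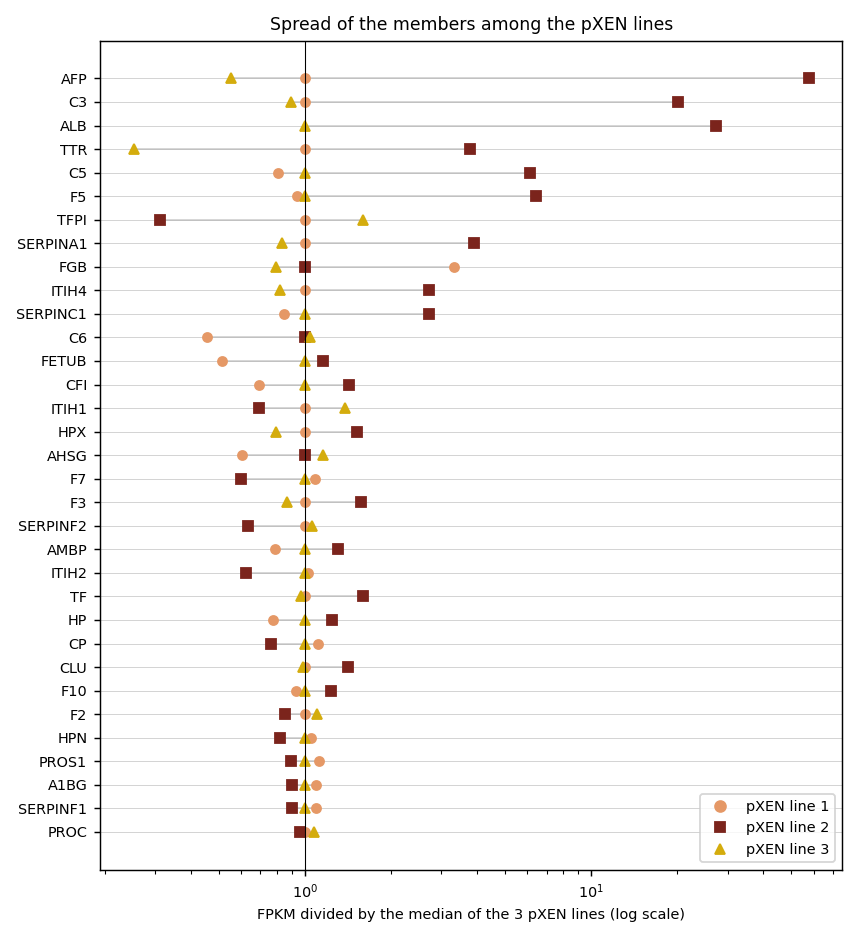
FPKM of each pXEN line divided by the median of the 3 lines, on a log scale, for the 33 genes averaging 10 counts or more, ALB included, sorted by the ratio of the highest to the lowest line. Line 2 lies far to the right for AFP, C3, ALB, C5, F5 and SERPINA1 and near the others for PROC, SERPINF1 and A1BG; line 1 of ALB, at 0 counts, is not drawn.

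Marker lists were also set against the spread of the pXEN lines. The summed level of the endoderm markers was lowest in line 2, at 2273, 2034 and 2144 FPKM in lines 1, 2 and 3, and 3 of the 10 were highest in it. Line 2 had the highest level of 10 of the 11 fibroblast markers found and the most counts on chromosome Y, given above, and 7 of 10 enzymes of mature hepatocytes were highest in it, with a sum of 12.5, 27.2 and 15.9 FPKM in lines 1, 2 and 3. Of the 5 hepatocyte enzymes that were tested, 3 were higher and 0 lower in pXEN cells than in nESCs, and 3 were higher and 1 lower than in pESCs, beside the same shares of all tested genes as given for the list above. Between 6 and 8 of the 10 lay above the floor in a pXEN line, and TDO2 and CYP2E1 had no count in any. The sum in the nESC lines was 1.16 and 7.01 FPKM and in the pESC lines 75.2 and 85.9 FPKM. Of 8 markers of blood cells and macrophages, 4 were highest in line 2, their sum lay between 2.62 and 3.86 FPKM, and PTPRC and CSF1R were at 0 in all pXEN lines. Of 7 endothelial markers, 1 was highest in line 2, with a sum between 1.47 and 2.26 FPKM. The part of any of these in the spread was not tested.

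Several of the genes lie beside each other in the genome and were set side by side, since relatives that share a locus need not share a level. SERPINF1 and SERPINF2, 8.25 kb apart on an unplaced scaffold, were both high in pXEN cells, at a mean of 42.5 and 81.2 FPKM. In pESCs they parted, at 13.8 and 0.0633 FPKM, and in nESCs in the other order, at 0.0326 and 0.579 FPKM. F10 and F7, 3.13 kb apart on chromosome 11, stood at 17.3 and 4.28 FPKM in pXEN cells and below 1 FPKM in both ESC types. AFP and ALB, 148 kb apart on chromosome 8, were both highest in pXEN line 2, at 176 and 2.41 FPKM. SERPINA1 and SERPINA5, 294 kb apart on chromosome 7, stood at a mean of 1291 and 0.0634 FPKM in pXEN cells. C6 and C7, 98.0 kb apart on chromosome 16, stood at 4.52 and 0.0156 FPKM. AHSG, FETUB and KNG1 lie within 1 cluster on chromosome 13 at 3.19, 10.04 and 0.549 FPKM. ITIH1, ITIH3 and ITIH4, on the same chromosome, stood at 1.94, 0.139 and 0.812 FPKM.

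**Figure D4:**
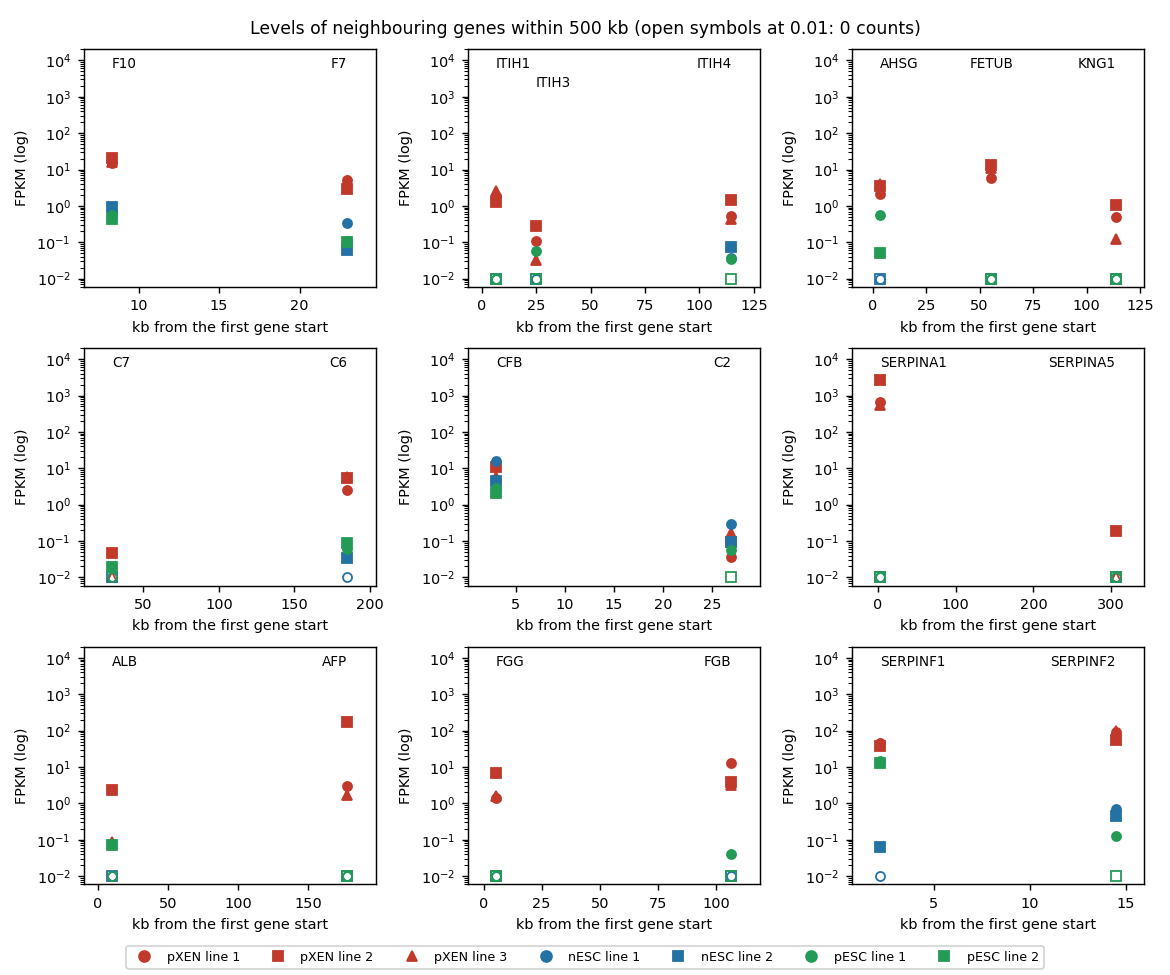
FPKM on a log scale in each library for genes of the list that lie within 500 kb of each other, against the distance of their midpoint from the first gene's start. SERPINA1 and C6 lie far above SERPINA5 and C7 in the pXEN lines, while SERPINF1 and SERPINF2 lie close together there and apart in both ESC types.

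Of the 9 symbols not found by name, 5 had an entry under another name or without one, matched by Ensembl identifier and kept out of the counts above. FGG, the gamma chain of fibrinogen, stood at 1.39, 6.82 and 1.62 FPKM in the pXEN lines and at 0 counts in the ESC lines, at least 37.6-fold higher than in nESCs (adjusted p = 0.00416) and at least 17.8-fold without pXEN line 2. It was highest in line 2, whereas FGB, which lies 91.3 kb from it, was highest in line 1. PLG, the zymogen of plasmin, had 4, 51 and 8 counts in the pXEN lines and 2, 0, 0 and 0 in the ESC lines. It did not pass the filter. Without a filter it was called higher than in nESCs (log2 fold change 4.32, adjusted p = 0.0365) and than in pESCs (at least 7.04-fold, adjusted p = 0.0143). Without nESC line 2 the log2 fold change against nESCs was 3.42, and without nESC line 1 the bound was 6.15-fold. CFB, factor B of the alternative complement pathway, stood at 4.62, 10.9 and 5.92 FPKM in the pXEN lines, 16.4 and 4.58 FPKM in the nESC and 2.85 and 2.10 FPKM in the pESC lines. CFB was not called against nESCs (log2 fold change −0.55, adjusted p = 0.410), and without nESC line 1 the direction turned (0.63, adjusted p = 0.365). Against pESCs it was not called (1.55, adjusted p = 0.0587), and it was called without nESC line 1 or 2 (adjusted p = 0.0230 and 0.0204) and with DESeq2 (adjusted p = 0.0113). It was lower in pESCs than in nESCs (−2.09, adjusted p = 0.0350), a call lost without nESC line 1 or either pESC line (adjusted p = 0.289, 0.123 and 0.187). SERPING1, the C1 inhibitor, was high in all cell types, at 105, 124 and 90.4 FPKM in the pXEN lines, 117 and 116 FPKM in the nESC and 67.9 and 70.9 FPKM in the pESC lines. It was higher in pXEN cells than in pESCs by a log2 fold change of 0.63 ± 0.14 (adjusted p = 0.00731) and not called against nESCs (−0.13 ± 0.14, adjusted p = 0.464). The first call was lost without pESC line 1 or 2 (adjusted p = 0.0673 and 0.0525), and without pXEN line 2 SERPING1 was called lower than in nESCs (−0.25, adjusted p = 0.0458). It was lower in pESCs than in nESCs by −0.76 on the log2 scale (adjusted p = 0.00756), a call lost without either pESC line (adjusted p = 0.0671 and 0.0540). The entry for VTN spans other genes, and its 7, 23 and 2 counts in the pXEN lines were not read further.

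A further 64 genes of complement, coagulation, fibrinolysis and plasma transport were listed for comparison, of which 58 were found and 34 tested. Against nESCs, pXEN cells had 18 at a higher and 5 at a lower level, and against pESCs, 9 were higher and 13 lower. Of all tested genes, 28.3% and 26.2% were called higher and lower against nESCs, and 23.9% and 24.4% against pESCs. In pESCs 20 were higher than in nESCs and 1 was lower, beside 19.0% and 13.3%. The median log2 fold change of the 34 genes was 1.57 and 0.58 in the pXEN comparisons and 1.68 between the ESC types.

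CD55, which dissociates complement convertases, had 12.2, 7.63 and 12.3 FPKM in the pXEN lines, 0 and 0.228 FPKM in the nESC and 47.9 and 38.1 FPKM in the pESC lines. Its ratio to nESCs was 82.7 with a 95% counting interval of 28.1 to 403 (adjusted p = 5.49e-05), and it was lower than in pESCs by a log2 fold change of −2.00 ± 0.30 (adjusted p = 0.000970). CD59, which blocks the pore, had 3.05, 5.86 and 4.79 FPKM in the pXEN lines, 16.9 and 12.3 FPKM in the nESC and 33.7 and 40.4 FPKM in the pESC lines. It was lower in pXEN cells by a log2 fold change of −1.68 (adjusted p = 0.00102) and −3.0 (adjusted p = 6.9e-05). Thrombomodulin (THBD), the cell surface cofactor for activation of protein C, had a mean of 0.0965 FPKM in pXEN cells, 0.489 FPKM in nESC and 6.75 FPKM in pESCs. THBD was lower in pXEN cells by a log2 fold change of −2.25 (adjusted p = 0.0460) and −6.02 (adjusted p = 0.000339). The first of these calls was lost without pXEN line 1 or 3, nESC line 2 or either pESC line (adjusted p = 0.0736, 0.117, 0.275, 0.0807 and 0.0829). PLAUR, the urokinase receptor, and ANXA2, a receptor for plasminogen and its activator, were higher in pXEN cells than in nESCs by log2 fold changes of 4.64 (adjusted p = 0.000387) and 4.16 (adjusted p = 4.52e-06). Against pESCs ANXA2 was higher by 0.55 on the log2 scale (adjusted p = 0.0414), a call lost without any 1 line but pXEN line 2 or 3 (adjusted p between 0.0541 and 0.211).

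GGCX, the carboxylase that modifies factors II, VII, IX and X and proteins C and S, stood at 39.5, 39.1 and 36.2 FPKM in the pXEN lines, 18.1 and 16.1 FPKM in the nESC and 14.1 and 13.9 FPKM in the pESC lines. It was higher than in pESCs by a log2 fold change of 1.46 (adjusted p = 2.87e-05). A2M, a general protease inhibitor, followed the uneven pattern, at 0.685, 14.3 and 0.613 FPKM in pXEN lines 1, 2 and 3, 0 and 0.0641 FPKM in the nESC and 5.51 and 5.38 FPKM in the pESC lines. Its log2 fold change against nESCs was 7.29 ± 2.14 (adjusted p = 0.0205). The call was lost without nESC line 1 or 2. The log2 fold change was then 6.30 without line 1, and a fitted 11.37 without line 2, the only nESC line with a level above 0. CFD, the protease that cuts factor B, stood at 5.90, 5.05 and 8.44 FPKM in the pXEN lines, 1.11 and 0.861 FPKM in the nESC, and 235 and 256 FPKM in the pESC lines. CFD was lower in pXEN cells than in pESCs by a log2 fold change of −5.24 (adjusted p = 2.11e-06). APCS, or serum amyloid P, had a mean of 0.306 FPKM in pXEN cells, 8.95 FPKM in nESC and 6.84 FPKM in pESCs, with log2 fold changes of −4.77 (adjusted p = 0.00163) and −4.37 (adjusted p = 0.00310). MASP2, a protease of the lectin pathway, was higher than in pESCs by a log2 fold change of 1.20 (adjusted p = 0.0488), although its lines overlapped, and the call was lost without any 1 line but pXEN line 2 (adjusted p between 0.0528 and 0.235).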

How the data were processed

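Total RNA depleted of rRNA was sequenced as directional libraries from 3 pXEN, 2 naïve-like (nESC) and 2 primed (pESC) embryonic stem cell lines. Per the submitters' processing notes, HISAT2 2.0.5, featureCounts 1.5.0-p3, edgeR 3.22.5 and the build Sscrofa10.2 were used. The authors deposited raw read counts and FPKM per gene. Counts were tested here with edgeR 4.0.16 in R 4.3.3: TMM, filterByExpr, 1 quasi-likelihood model of the 3 cell types with 4 residual degrees of freedom, and Benjamini-Hochberg adjustment over 17447 genes. The steps were tested on simulated data. DESeq2 1.42.0, limma 3.58.1 on log2(FPKM + 0.1) and log2(FPKM + 1), other scalings and filters, a replicate block and leaving out each line were alternatives. The p-values measure the spread between lines, except under the replicate block for genes without a count in the ESC lines. Described genes had a mean of at least 5 FPKM in a cell type, a call between the ESC types, or a ratio above 2 among pXEN lines with at least 10 counts on average, and up to 4 genes per direction for the further list. Levels against a group at 0 were bounded by 3 counts per library, and 95% counting intervals are exact. Gene names and lists were chosen with earlier results of these data known.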

Additional observations from a re-analysis of the deposited data

How the results depend on the processing

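Of 1873 values recomputed for 46 described genes under 17 alternatives, 1736 kept their direction and side of the threshold, 86 lost and 41 gained a call, and 10 reversed. Without 1 line, 33 to 36 plasma protein genes could be tested, and those called higher numbered 24 to 30 against nESCs and 22 to 28 against pESCs, beside 21.0% to 30.2% and 14.7% to 26.5% of all genes tested. Plasma protein genes called lower against nESCs numbered 1 under either limma setting and under the replicate block, and 1 to 2 without 1 line, beside 26.6%, 26.7%, 21.9% and 18.7% to 29.8% of all genes. Against pESCs, 0 to 1 were lower without 1 line (15.5% to 28.9% of all genes), the 1 being C3 without pXEN line 2. Between ESC types, plasma protein genes higher numbered 7 with DESeq2, 2 with limma on log2(FPKM + 1) and 2 to 6 without 1 line, and plasma protein genes lower 1 with either limma setting and 0 to 4 without 1 line. Of all genes, 19.3%, 19.2% and 11.1% to 24.4% were higher there, and 13.1%, 14.0% and 5.07% to 19.4% lower. Further genes higher than in pESCs numbered 4 to 9 without 1 line. Between ESC types, 10 to 22 further genes were higher without 1 line. The 1 further gene lower in pESCs than in nESCs became 3 with upper-quartile factors and with only the compared groups, and 2 with chromosome offsets. It became 0 without a filter, with DESeq2 and under the replicate block. Of all genes, 16.5%, 19.9%, 14.9%, 9.26%, 13.1% and 11.4% were lower in these settings, in that order. Plasma protein genes with a ratio above 2 numbered 3 without pXEN line 2, and 3 to 13 over the lines left out.

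Among these genes, the log2 fold changes that reversed without 1 line ranged, between ESC types, from −0.64 to 0.12 for HPX (0.12 without pESC line 2), from −0.99 to 0.75 for PROC (0.75 without nESC line 1, 0.38 without pESC line 1), from −1.63 to 0.75 for F7 (without nESC line 1) and from −0.031 (without pESC line 1) to 1.05 for F12. Against pESCs they ranged from −2.98 to 0.51 for C3 (0.50 and 0.51 without pXEN line 1 or 3, 0.01 without pESC line 1) and from −0.10 (without pXEN line 2) to 0.43 for CFI. Against nESCs they ranged from −1.19 to 0.63 (without nESC line 1) for CFB. Of these values only the −2.98 of C3 was called. The cause was not tested. Replicate numbers did not pair the lines (r between deviations 0.02, 0.03 and −0.01), and the replicate block called 29 plasma protein genes higher against nESCs, beside 25.5% of all genes, and changed calls of AFP (against both ESC types), F5 (against nESCs), and TFPI and C3 (between ESC types), which it gained, and of CP and THBD (against nESCs) and CFB (between ESC types), which it lost. Upper-quartile factors moved the median of all genes by −0.17 against nESCs. With 1 line left out of a pair, the lone line is assumed to vary like the others. Genes near 3 counts per library cannot be told from absent at this depth.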
